A study of Homo sapiens with 9 samples.

Results

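The genes described here code for the core proteins of the small nuclear ribonucleoproteins (snRNPs), the RNA-protein particles that build the spliceosome. They were chosen by gene symbol alone: all genes on the array whose symbol begins with SNRP, SF3A or SF3B, or is LSM or PRPF followed by a number, with pseudogenes and antisense RNAs left out. This gave 45 genes of the 19777 genes that had a probe set of their own. The mRNAs were measured in extracellular vesicles released by H9, a human embryonic stem cell line grown without serum or feeder cells on Matrigel in mTeSR1 medium. MVs (microvesicles) were the pellet of a 1 h spin at 16500 g, EXOs (exosomes) the pellet of the 2 h spin at 120000 g that followed it, and hESEVs the non-fractionated vesicles, which the labels of these arrays describe as pelleted at 120000 g for 2 h with no spin to remove apoptotic bodies. Each group had 3 arrays, all from the same cell line. The methods of the study differ from the labels here, since they give hESEVs a clearing spin against apoptotic bodies and a faster, longer final spin, and which of the 2 protocols these arrays had is not settled.

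In the cell nucleus, the U1, U2, U4 and U5 snRNAs each carry a ring of Sm proteins, while U6 snRNA carries a related ring of LSM proteins. U1 recognises the 5′ splice site of the intron and U2 its branch point. The U4/U6.U5 tri-snRNP then joins them, and PRPF8 lies at the centre of the assembled machine. Mutations in several tri-snRNP genes, among them PRPF8, PRPF31, PRPF3 and PRPF6, cause retinitis pigmentosa, an inherited loss of photoreceptors.

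The signal used below is the scaled MAS5 intensity of the probe set with the highest mean for each gene. Equal amounts of labelled RNA were hybridised, and all arrays were scaled to the same trimmed mean, which leaves out the highest and lowest signals. A signal is relative to that mean and is not a share of all signal on the array. Summed over all genes, signals came to between 24361500 and 25361700 on the MVs arrays. The sums were between 14271700 and 14489900 on the EXOs arrays and between 16813400 and 17449700 on the hESEVs arrays. The fold differences below are therefore not differences in share. More copies per vesicle cannot be told apart from more vesicles that carry the transcript. As a guide to background, the 90th percentile of the signals of 87 genes restricted to differentiated tissues was 889 in MVs, 1333 in EXOs and 1052 in hESEVs. Of the 45 genes, 36 had a mean signal above that level in MVs, 5 in EXOs and 22 in hESEVs. Of all 19777 genes, 4812 did so in MVs, 1692 in EXOs and 3357 in hESEVs. All 11 pluripotent stem cell markers lay above it in MVs, against 3 in EXOs and 9 in hESEVs. Of the 18 markers of other cell types, 3 lay above it in MVs, 2 in EXOs and 3 in hESEVs, and those above it were COL1A1 and PECAM1 in all 3 groups and DCN in MVs and hESEVs. The other 15, among them AFP, ALB, GFAP, FOXA2 and PTPRC, were below it in each group. The stem cell markers summed to between 70285 and 73055 on the MVs arrays, between 14568 and 17647 on the EXOs arrays and between 22158 and 24299 on the hESEVs arrays. The markers of other cell types summed to between 8076 and 8788 on the MVs arrays, between 12114 and 13206 on the EXOs arrays and between 9971 and 11588 on the hESEVs arrays. The 5′ and 3′ control probe sets also differed between the groups. The median log2 ratio of 3′ to 5′ signal was 1.53 in MVs, 0.76 in EXOs and 1.06 in hESEVs for GAPDH, and 4.56 in MVs, 2.58 in EXOs and 3.29 in hESEVs for ACTB. Their part in the results below was not tested.

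The promoters of these genes are shown first as a description of the genes, and a link to the vesicle fractions was not tested. RefSeq promoter windows (GRCh38.p14) were matched by symbol for 38 of the 45 genes, and 250 bases upstream of the start site were searched on both strands. The 4 upstream stretches below belong to SNRPD2 (chr19:45692317-45692566, minus strand), SNRPB (chr20:2470790-2471039, minus strand), SF3A2 (chr19:2236574-2236823, plus strand) and LSM8 (chr7:118183914-118184163, plus strand). Each ends at the base before the annotated start of its gene. Capitals mark CCGGAAG or its reverse complement, the core that ETS factors bind.
SNRPD2: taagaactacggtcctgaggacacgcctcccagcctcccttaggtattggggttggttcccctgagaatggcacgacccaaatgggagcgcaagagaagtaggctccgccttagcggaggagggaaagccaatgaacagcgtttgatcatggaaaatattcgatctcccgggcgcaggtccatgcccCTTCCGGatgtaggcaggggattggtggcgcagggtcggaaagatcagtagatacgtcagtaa
SNRPB: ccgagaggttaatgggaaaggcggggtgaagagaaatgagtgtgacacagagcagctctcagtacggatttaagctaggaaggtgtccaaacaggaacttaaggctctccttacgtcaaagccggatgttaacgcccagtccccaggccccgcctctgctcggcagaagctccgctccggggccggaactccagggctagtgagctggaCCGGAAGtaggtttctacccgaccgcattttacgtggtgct
SF3A2: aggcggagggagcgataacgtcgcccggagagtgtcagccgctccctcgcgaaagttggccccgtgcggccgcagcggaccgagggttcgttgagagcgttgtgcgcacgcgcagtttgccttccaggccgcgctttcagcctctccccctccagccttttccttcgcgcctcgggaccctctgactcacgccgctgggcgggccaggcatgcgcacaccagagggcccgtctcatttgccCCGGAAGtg
LSM8: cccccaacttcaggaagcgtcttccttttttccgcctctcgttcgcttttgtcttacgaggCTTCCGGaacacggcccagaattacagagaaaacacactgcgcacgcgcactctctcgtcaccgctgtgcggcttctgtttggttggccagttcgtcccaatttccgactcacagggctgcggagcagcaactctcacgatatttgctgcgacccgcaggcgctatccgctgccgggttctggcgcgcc

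CCGGAAG was found upstream of 17 of the 38 genes (44.7%), against 11.8% of 15843 protein-coding genes searched the same way. For 34 of the 38 genes the start site of the window was the annotated start of the gene. It lay 248 bases away for SNRPE, 282 for SNRPG, 915 for PRPF40B and 32934 for SNRPN. SNRPE and SNRPG were among the genes with a match. The other 3 motifs searched were ATGGCGG, the core bound by YY1, found for 3 genes (7.89%, against 3.09% of all), CCAAT for 15 genes (39.5%, against 34.5%), and TATAAA for 1 gene (2.63%, against 9.35%). All 4 motifs were chosen after their matches had been seen, CCGGAAG does not overlap any of the others in its letters, and a match is a description of the window, not a site. Genes with and without CCGGAAG covered much the same range of differences between the vesicle fractions. Of the 17 genes with a match, 13 were called higher in MVs than in EXOs (median log2 difference 2.44, range -1.02 to 4.68). Of the 21 without, 14 were called higher in MVs (median 1.87, range -1.12 to 5.05).

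Most snRNP mRNAs had a higher signal in MVs than in EXOs. A gene was called different at a limma adjusted p under 0.05, taken over all genes, and a difference of at least 2-fold. By this rule 30 of the 45 genes were higher in MVs, where 11.6% of all genes were. Another 2 genes, SF3B2 and SNRPN, were higher in EXOs, where 2.77% of all genes were, and 13 were not called. The median log2 difference, MVs minus EXOs, was 1.74 for the 45 genes and -0.23 for all genes. The 3 MVs arrays lay above all 3 EXOs arrays for 36 of the 45 genes (18.8% of all genes) and below them for 3 genes (22.6% of all genes). The genes that code for the Sm ring and for LSM2 to LSM8 were called higher in MVs without exception, while the 31 remaining genes split into 16 higher in MVs, 2 higher in EXOs and 13 not called.

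**Figure D1:**
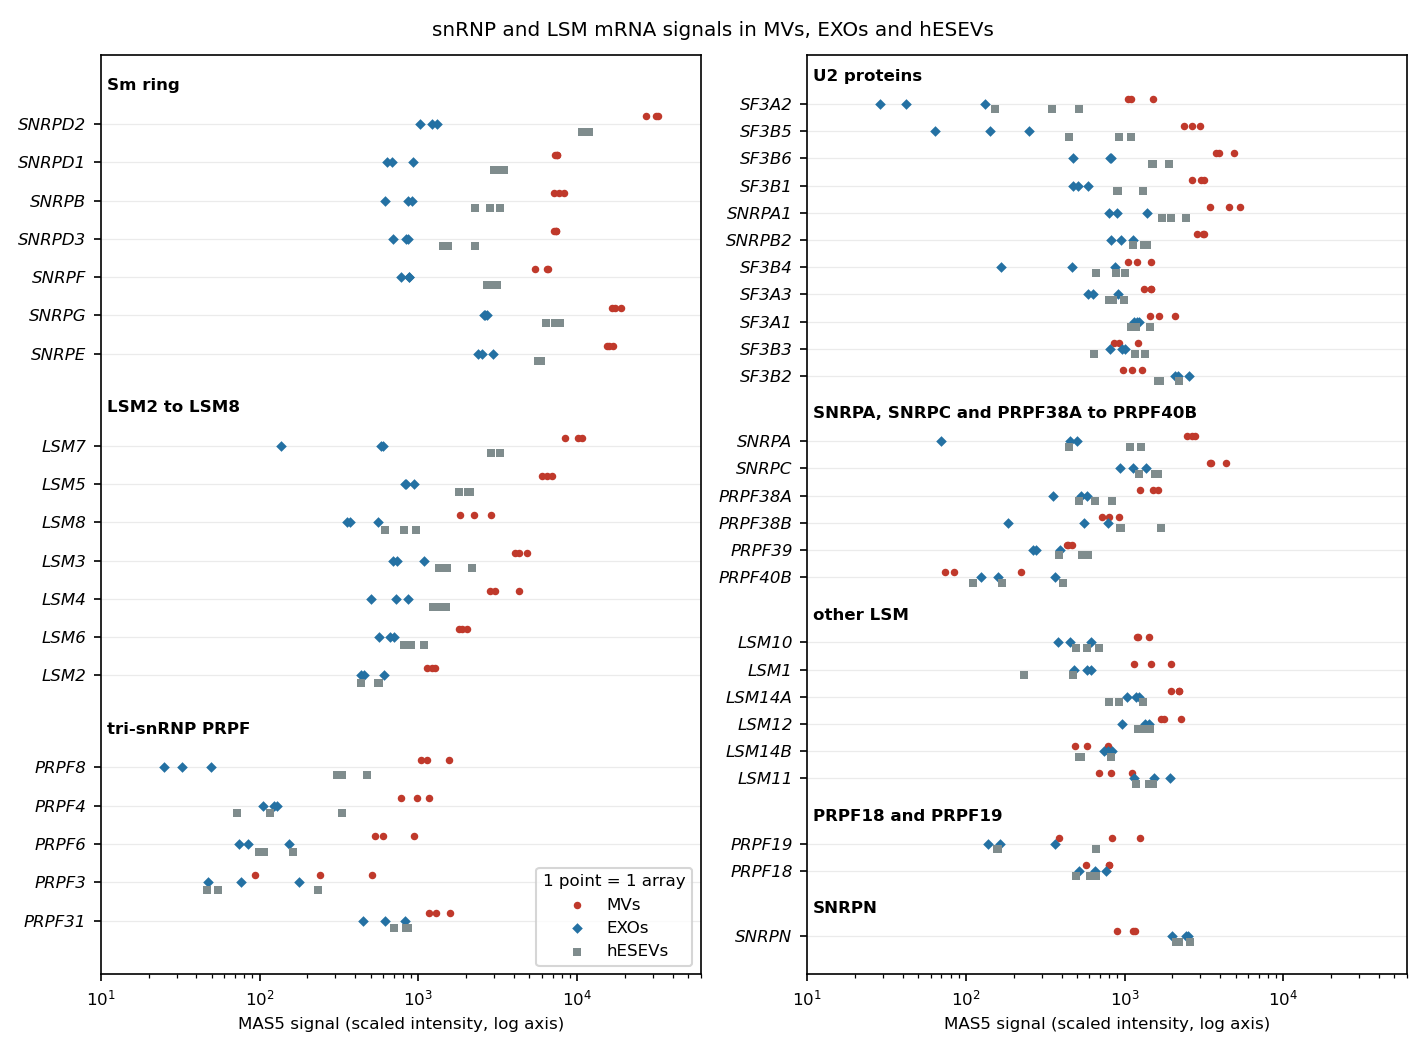
MAS5 signal (log axis) of each of the 45 genes on every array, in MVs (red circles), EXOs (blue diamonds) and hESEVs (grey squares), 3 arrays each, grouped by role. For the 7 Sm ring genes and the 7 genes LSM2 to LSM8, all MVs points lie to the right of all EXOs points.

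The 7 Sm ring proteins assemble around the snRNA in the cytoplasm before the particle returns to the nucleus. SNRPD2, which pairs with SNRPD1 in the ring, had the widest gap of the 7. Its signal was 31211, 32517 and 27159 in MVs, against 1317, 1020.4 and 1224 in EXOs and 11949, 10657 and 11031 in hESEVs. The 3 groups did not overlap, and the log2 difference between MVs and EXOs was 4.68 ± 0.12 (SE, adjusted p = 1.37e-07, 25.6-fold).

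SNRPD1 had signals of 7468, 7489.7 and 7303 in MVs, against 633, 687 and 931 in EXOs and 3196, 3474 and 2976 in hESEVs. SNRPD3, the partner of SNRPB, had signals of 7311, 7386 and 7135 in MVs, against 839, 695 and 862 in EXOs and 2273, 1530.1 and 1423 in hESEVs. SNRPB, which gives both the B and the B′ protein by alternative splicing, had signals of 8237, 7684 and 7141 in MVs, against 858, 617 and 909 in EXOs and 3288, 2277 and 2814 in hESEVs. In these 3 genes, as in SNRPD2, the EXOs signals lay below the background guide of 1333, so the measured ratio is one to a level that tissue-restricted genes also reach. The log2 differences were 3.33 ± 0.15 for SNRPD1 (adjusted p = 1.32e-06), 3.19 ± 0.11 for SNRPD3 (adjusted p = 3.93e-07) and 3.29 ± 0.16 for SNRPB (SE, adjusted p = 1.92e-06).

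SNRPE, SNRPF and SNRPG form the remaining sub-complex of the ring. SNRPE had signals of 15314, 15879 and 16702 in MVs, against 2507, 2963 and 2381 in EXOs and 5918, 5654 and 5844 in hESEVs. SNRPG had signals of 17410.5, 18937 and 16479 in MVs, against 2599.5, 2615 and 2705 in EXOs and 7304, 7780.1 and 6395 in hESEVs. Both were above the background guide in all 3 groups, EXOs included. SNRPF had signals of 6415, 6559 and 5394 in MVs, against 875, 873 and 776 in EXOs and 3130.2, 2776 and 2717 in hESEVs. The log2 differences between MVs and EXOs were 2.61 ± 0.11 for SNRPE (adjusted p = 6.92e-07), 2.74 ± 0.09 for SNRPG (adjusted p = 2.61e-07) and 2.86 ± 0.12 for SNRPF (SE, adjusted p = 8.38e-07). The median log2 difference over the 7 ring genes was 3.19, and their range was 2.61 to 4.68.

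SNRPN codes for SmN, which takes the place of SmB in brain, and its gene is imprinted. The annotation gives it 1 probe set of its own, with signals of 889, 1161 and 1136 in MVs, against 2442, 1975 and 2509 in EXOs and 2185, 2594 and 2100.2 in hESEVs. This probe set was higher in EXOs (log2 difference -1.12 ± 0.16, SE, adjusted p = 0.00154), but just under 2-fold without MVs replicate 1 (adjusted p = 0.00607) and with each array centred on its median (-0.89). A further 11 probe sets carry SNRPN together with other genes, and 4 of them were called higher in MVs. The brightest of these, annotated to both SNURF and SNRPN, had signals of 19774, 20969 and 18635 in MVs, against 2526, 2778 and 2604 in EXOs and 6129, 5339 and 5532 in hESEVs. Its log2 difference was 2.91, so the direction for SNRPN depended on the probe set, and the array does not settle it.

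LSM2 to LSM8 form the ring at the 3′ end of U6 snRNA in the nucleus, and all except LSM8 also join LSM1 in the cytoplasmic ring that promotes decapping of mRNA. The 7 genes were called higher in MVs, with log2 differences between 1.29 and 4.75 and a median of 2.42. None of the 7 had a mean EXOs signal above the background guide. LSM5 had signals of 6017, 6434 and 6962 in MVs, against 839, 943 and 829 in EXOs and 2099.6, 2052 and 1797 in hESEVs (MVs minus EXOs 2.89 ± 0.11, SE, adjusted p = 5.13e-07). LSM3 had signals of 4844, 4071 and 4324 in MVs, against 1087, 736 and 697 in EXOs and 2179.6, 1342 and 1513 in hESEVs. Its difference was 2.42 ± 0.18 (SE, adjusted p = 2.93e-05).

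LSM7 had signals of 10751, 10164 and 8430.2 in MVs, against 597, 579 and 137 in EXOs and 2871, 3253 and 2885 in hESEVs. EXOs replicate 3 was far below the other EXOs arrays for this gene. The log2 difference was 4.75 ± 0.51 (SE, adjusted p = 0.000276, 26.9-fold), and without EXOs replicate 3 it was 4.05 (16.5-fold). LSM6 had signals of 1814, 1881 and 2025 in MVs, against 564, 665 and 702 in EXOs and 1089.5, 815 and 899.9 in hESEVs. LSM2, the gene of this ring with the smallest gap, had signals of 1268, 1225 and 1129.6 in MVs, against 605, 458 and 434 in EXOs and 435, 557 and 568 in hESEVs. The differences were 1.57 ± 0.15 for LSM6 (adjusted p = 0.000167) and 1.29 ± 0.21 for LSM2 (SE, adjusted p = 0.00327). LSM8, the subunit that sets the nuclear ring apart, averaged 2309 ± 515 in MVs and 429 ± 114 in EXOs (SD, n = 3 each), and LSM4 averaged 3385 ± 795 in MVs and 695 ± 177 in EXOs. The other 3 probe sets of LSM8 were not called in MVs against EXOs, and the lowest of them gave -1.08.

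**Figure D2:**
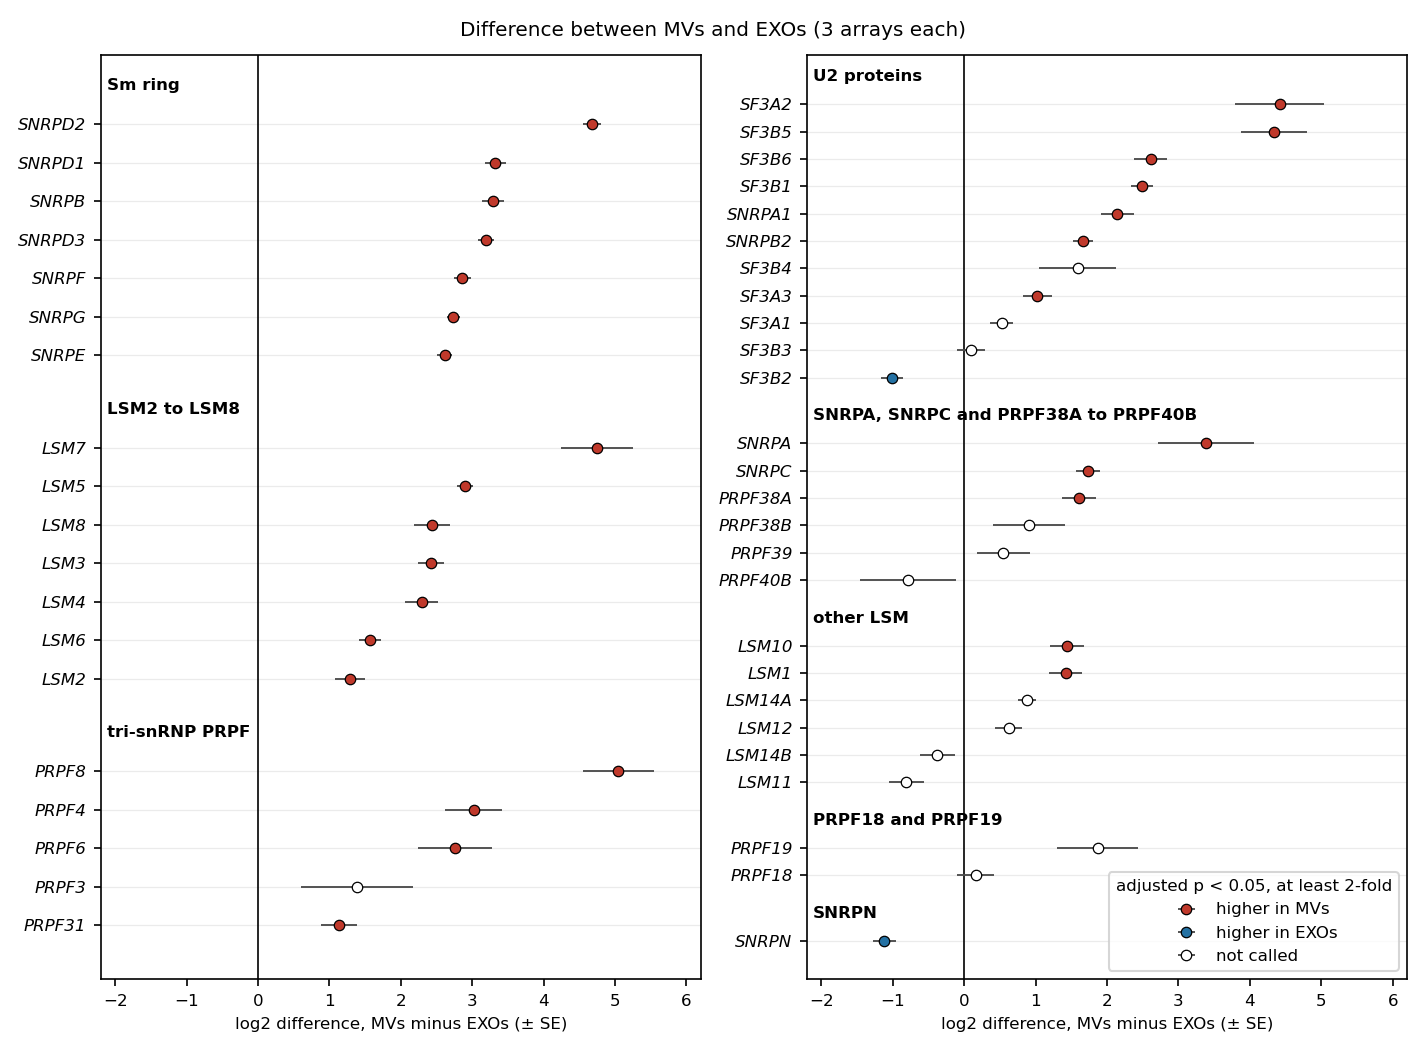
Log2 difference, MVs minus EXOs, for each of the 45 genes with its standard error (bars), grouped by role. Red points are called higher in MVs (30 genes), blue points higher in EXOs (SF3B2 and SNRPN), and open points not called (13 genes).

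The U2 snRNP recognises the branch point through the SF3A and SF3B complexes. Of its 11 genes, 7 were called higher in MVs, SF3B2 was called higher in EXOs, and SF3B4, SF3A1 and SF3B3 were not called. SF3B1, the large subunit that clamps the branch point and is often mutated in myelodysplastic syndromes, had signals of 3041, 3145 and 2639 in MVs, against 509.7, 589 and 474 in EXOs and 1300.1, 906 and 894 in hESEVs. SNRPB2, which binds U2 snRNA, had signals of 3164, 2848 and 3100.2 in MVs, against 824, 950.1 and 1121 in EXOs and 1327, 1131 and 1376 in hESEVs. SF3B6, which contacts the branch point adenosine, had signals of 3906, 4862 and 3768 in MVs, against 473, 824 and 807 in EXOs and 1506, 1910.2 and 1479.5 in hESEVs. In none of these 3 genes did MVs overlap EXOs. The log2 differences were 2.49 ± 0.15 for SF3B1 (adjusted p = 8.36e-06), 1.66 ± 0.14 for SNRPB2 (adjusted p = 6.65e-05) and 2.61 ± 0.23 for SF3B6 (SE, adjusted p = 7.49e-05).

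The widest gaps among the U2 genes were those of SF3A2 and SF3B5, whose EXOs signals were close to the floor of 32 set on all signals or a few times above it. SF3A2 had signals of 1101, 1501 and 1054 in MVs, against 28.8, 132 and 42.2 in EXOs, and SF3B5 had signals of 2978, 2647 and 2352 in MVs, against 64.1, 141 and 248 in EXOs. The differences were 4.42 ± 0.62 (adjusted p = 0.00144) for SF3A2 and 4.34 ± 0.46 for SF3B5 (SE, adjusted p = 0.000275), and that of SF3A2 was 5.03 without EXOs replicate 2. SNRPA1, the partner of SNRPB2 on U2 snRNA, averaged 4451 ± 948 in MVs and 1019.8 ± 309 in EXOs (SD, n = 3 each). It was higher in MVs in 3 of its 4 probe sets, and the fourth gave -0.51. SF3A3 averaged 1417 ± 79.9 in MVs and 709 ± 176 in EXOs, a log2 difference of 1.02 ± 0.20 (adjusted p = 0.00919). That difference was below 2-fold without EXOs replicate 2 (0.95), EXOs replicate 3 (0.90) or MVs replicate 3 (adjusted p = 0.041).

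The U2 genes not called had wider spreads or smaller gaps. SF3B4 had signals of 1200.4, 1043 and 1454 in MVs, against 467, 166 and 866 in EXOs and 879, 656 and 999.8 in hESEVs. The MVs arrays did not overlap the EXOs arrays, but EXOs overlapped hESEVs and varied over a wide range, and the difference of 1.59 ± 0.53 did not pass (SE, adjusted p = 0.0714). Without EXOs replicate 3 it was 2.13 and passed (adjusted p = 0.0199). SF3B3 had signals of 1218, 856 and 918 in MVs, against 962, 1001 and 813 in EXOs and 1346, 644 and 1168 in hESEVs. All 3 groups overlapped (MVs minus EXOs 0.10 ± 0.20, SE, adjusted p = 0.759), and the sign turned without MVs replicate 1 (-0.06). SF3A1 averaged 1726 ± 328 in MVs and 1189 ± 42.2 in EXOs (log2 difference 0.52 ± 0.16, adjusted p = 0.0541).

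SF3B2, which binds SF3B4 in the SF3B complex, was opposite by probe set. The probe set with the higher mean had signals of 970.3, 1109 and 1289.8 in MVs, against 2167, 2074 and 2554 in EXOs and 1667, 2186 and 1615 in hESEVs (MVs minus EXOs -1.02 ± 0.15, SE, adjusted p = 0.002). The other probe set of the gene had signals of 1022, 286 and 474 in MVs, against 34.9, 27.2 and 29.1 in EXOs, a log2 difference of 3.97 (adjusted p = 0.0055 over all probe sets). The mean signals of this second probe set were below the background guide in every group and 2 of its EXOs arrays were under the floor of 32, so its difference is one to a level near the floor. The direction for SF3B2 thus depended on the probe set, and the array does not settle it. The call for the first probe set was also just over 2-fold, and was lost without MVs replicate 1 (-0.92) or EXOs replicate 3 (-0.93) and with each array centred on its median (-0.78).

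In the tri-snRNP, 4 of 5 genes were called higher in MVs, and 3 of the 5 had a mean MVs signal above the background guide. PRPF8, the scaffold at the catalytic centre, had signals of 1555, 1140.5 and 1039.9 in MVs, against 25, 49.2 and 32.4 in EXOs and 474, 332 and 309 in hESEVs. The log2 difference was 5.05 ± 0.49 (SE, adjusted p = 0.000158), but all 3 EXOs signals were far below the background guide and 1 was under the floor of 32. With a floor of 100 the difference was 3.62, smaller than those of LSM7 (4.75), SNRPD2 (4.68) and SF3B5 (4.12), so PRPF8 has no fixed rank among the 45. PRPF4, a U4/U6 protein, had signals of 1159, 986 and 774 in MVs, against 105, 124 and 128 in EXOs and 331, 72 and 116 in hESEVs (MVs minus EXOs 3.02 ± 0.40, SE, adjusted p = 0.000951). Its other probe set gave -0.39. PRPF31, which binds U4 snRNA together with SNU13, had signals of 1292, 1586 and 1169.5 in MVs, against 819.7, 616 and 448 in EXOs and 832, 701 and 866 in hESEVs. Its difference was 1.13 ± 0.25 (SE, adjusted p = 0.0156). The call was lost without EXOs replicate 3 (0.91), MVs replicate 1 (adjusted p = 0.0505) or MVs replicate 2 (adjusted p = 0.0667), and the other probe sets of PRPF31 gave -0.10 and -2.34.

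PRPF6, which bridges U5 and U4/U6, had signals of 936, 533 and 597 in MVs, against 74.7, 152 and 84.4 in EXOs and 99.1, 162 and 106 in hESEVs. The MVs arrays lay above the others, while EXOs and hESEVs overlapped (MVs minus EXOs 2.76 ± 0.52, SE, adjusted p = 0.00663). The mean signal of PRPF6 was below the background guide in each group, MVs included. The other probe set of PRPF6 had signals of 227, 234 and 263 in MVs, against 477, 110.3 and 333 in EXOs, and the difference for it was -0.11. This second probe set became the brighter one, and took the place of the first, when any MVs array or EXOs replicate 2 was left out, and the difference was then between -0.73 and -0.07. PRPF3 had signals of 510.3, 93.9 and 239 in MVs, against 76.8, 176 and 47.6 in EXOs and 54.6, 232 and 46.7 in hESEVs. All groups overlapped at a low level (1.38 ± 0.78, SE, adjusted p = 0.247).

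SNRPA and SNRPC code for the A and C proteins of the U1 snRNP, which recognises the 5′ splice site. SNRPC had signals of 3512, 4365 and 3454 in MVs, against 1126, 1363 and 929.6 in EXOs and 1563, 1223 and 1612 in hESEVs (MVs minus EXOs 1.74 ± 0.17, SE, adjusted p = 0.00014). SNRPA had signals of 2639, 2762 and 2474 in MVs, against 453, 497 and 69.5 in EXOs and 1273, 446 and 1080.2 in hESEVs. As for LSM7, EXOs replicate 3 was the lowest by a wide margin. The difference of 3.39 ± 0.67 (SE, adjusted p = 0.00895, 10.5-fold) was 2.47 without that array (5.53-fold). PRPF38A, a factor of the precatalytic spliceosome, had signals of 1511, 1629.8 and 1254 in MVs, against 352, 531 and 583 in EXOs and 833, 649 and 517 in hESEVs (MVs minus EXOs 1.61 ± 0.24, SE, adjusted p = 0.00212).

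The remaining PRPF genes were not called. PRPF39, whose yeast counterpart is a U1 protein, had signals of 434, 441 and 464 in MVs, against 390.3, 265 and 277 in EXOs and 384, 540.4 and 586 in hESEVs. PRPF40B, also related to a yeast U1 protein, had signals of 84.4, 224 and 74 in MVs, against 124, 159 and 364 in EXOs and 408, 110.1 and 168 in hESEVs. Both were below the background guide in all 3 groups (adjusted p = 0.33 and 0.438). PRPF38B averaged 814 ± 105 in MVs and 508 ± 302 in EXOs (SD, n = 3 each, adjusted p = 0.238).

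PRPF19, the ubiquitin ligase of the complex that accompanies the activated spliceosome, had signals of 1241, 387 and 835 in MVs, against 164, 366 and 138 in EXOs and 659.8, 158 and 157 in hESEVs. The MVs and EXOs arrays did not overlap, but the spread was wide and the gene was just outside the threshold (1.87 ± 0.57, SE, adjusted p = 0.0533). It passed without EXOs replicate 2 (2.30, adjusted p = 0.0385) or MVs replicate 2 (2.33, adjusted p = 0.0366). PRPF18, a factor of the later catalytic step, had signals of 799, 569 and 791 in MVs, against 764, 517 and 649 in EXOs and 493, 608 and 663 in hESEVs, with all groups overlapping (0.16 ± 0.26, SE, adjusted p = 0.689).

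The LSM proteins outside the U6 ring act elsewhere, and 2 of these 6 genes were called higher in MVs. LSM1, the subunit that sets the cytoplasmic decapping ring apart, had signals of 1959, 1455 and 1139.9 in MVs, against 614, 575 and 481 in EXOs and 231, 472 and 472 in hESEVs (MVs minus EXOs 1.42 ± 0.24, SE, adjusted p = 0.00356). LSM10, which with LSM11 replaces 2 Sm proteins in the U7 snRNP for histone mRNA processing, had signals of 1428, 1204 and 1213 in MVs, against 615, 379 and 453 in EXOs and 576, 686 and 491 in hESEVs (1.44 ± 0.24, SE, adjusted p = 0.00337). LSM11, the partner of LSM10, went the other way without passing the test. It averaged 873 ± 212 in MVs and 1540.0 ± 395 in EXOs (SD, n = 3 each; -0.81 ± 0.25, adjusted p = 0.0517), and passed without EXOs replicate 2 (-1.01, adjusted p = 0.0327).

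LSM14A, a P-body protein that represses translation, had signals of 2199.7, 1948 and 2193 in MVs, against 1236, 1179 and 1033 in EXOs. Its difference of 0.88 ± 0.13 (SE) had an adjusted p of 0.00185 but was below 2-fold. Another probe set of LSM14A was called higher in MVs (2.06, 4.16-fold, adjusted p = 0.00048 over all probe sets). LSM12 had signals of 1694, 2261 and 1759.9 in MVs, against 1426, 964 and 1345 in EXOs and 1447, 1220.1 and 1293 in hESEVs (0.62 ± 0.19, SE, adjusted p = 0.0531). LSM14B, the paralog of LSM14A, had signals of 785, 578 and 485 in MVs, against 781, 737 and 835 in EXOs and 516, 534 and 819.6 in hESEVs (-0.38 ± 0.25, SE, adjusted p = 0.313).

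The comparisons with hESEVs showed where each fraction stood relative to the non-fractionated vesicles. Both use the same 3 hESEVs arrays and are not independent of each other. Against hESEVs, 25 of the 45 genes were higher in MVs, where 7.16% of all genes were, and 1 gene, SNRPN, was higher in hESEVs, where 1.56% of all genes were. The median log2 difference, MVs minus hESEVs, was 1.22 for the 45 genes and -0.15 for all genes. Quantile normalization between the arrays gave 10 calls and a median of 0.59. In EXOs, no gene of the 45 was higher than in hESEVs, where 0.172% of all genes were, and 13 were lower, where 3.28% of all genes were. Since so few of all genes were called higher in EXOs, a count of 0 is no finding about the 45 genes. It was the same at an unadjusted p under 0.05 with 2-fold, both with limma and with the methods' t-test. The median log2 difference, EXOs minus hESEVs, was -0.53 for the 45 genes and 0.001 for all genes.

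The 7 Sm ring genes passed in both comparisons with the deposited scaling. They were higher in MVs than in hESEVs by log2 1.09 (SNRPF) to 2.09 (SNRPD3), and lower in EXOs than in hESEVs, with log2 differences between -3.25 (SNRPD2) and -1.10 (SNRPD3). The EXOs differences of SNRPD3 (-1.10 ± 0.17) and SNRPE (-1.16 ± 0.10, SE) lay within their errors of each other, and without hESEVs replicate 1 that of SNRPD3 was below 2-fold (-0.89). After quantile normalization between the arrays, only SNRPD3 of the 7 was still called higher in MVs than in hESEVs (1.12), and the other 6 had log2 differences between 0.05 and 0.41. For SNRPD1, the probe set whose name does not end in _s_at gave 0.38 in EXOs against hESEVs. The genes LSM2 to LSM8 were higher in MVs than in hESEVs by log2 1.04 (LSM6) to 1.71 (LSM5). Of these genes, LSM5 and LSM7 were called lower in EXOs than in hESEVs. In that comparison LSM3 (-0.996, limma adjusted p = 0.0167) and LSM4 (-0.995, adjusted p = 0.0203) were just under 2-fold. The EXOs arrays lay below all hESEVs arrays for 6 of the 7 genes, and for 2231 of all 19777 genes. For LSM8, another probe set was called lower in MVs than in hESEVs (-1.47, adjusted p = 0.0489 over all probe sets), with mean signals below the background guide in all 3 groups. The LSM7 difference of -3.05 in EXOs was -2.35 without EXOs replicate 3. For LSM2, EXOs and hESEVs could not be told apart (-0.06 ± 0.23, SE, adjusted p = 0.945).

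In the other complexes fewer genes passed. Of the 11 U2 genes, 5 were higher in MVs than in hESEVs (SF3B1, SNRPB2, SF3B6, SF3B5 and SNRPA1), and SF3B5, SF3B6 and SNRPA1 were lower in EXOs than in hESEVs. PRPF8 passed both (1.75 ± 0.46 in MVs, adjusted p = 0.0297, and -3.30 ± 0.46 in EXOs, SE, adjusted p = 0.00111). The call of PRPF4 in MVs against hESEVs (2.77 ± 0.59) depended on its probe set, since without MVs replicate 3 the other probe set was the brighter one and gave 0.89 (adjusted p = 0.49), and without hESEVs replicate 1 it was 3.39. LSM1 was the gene with the widest gap between MVs and hESEVs among the 6 other LSM genes (1.99 ± 0.32, SE, adjusted p = 0.00174), and its EXOs signals were above all hESEVs signals without passing the test (adjusted p = 0.478). The adjusted p of LSM7, PRPF8 and SF3B5 in MVs against hESEVs lay between 0.027 and 0.0297. The LSM7 call was lost whichever MVs or hESEVs array was left out (adjusted p 0.0557 to 0.0823). That of PRPF8 was lost without any 1 MVs array, or without hESEVs replicate 2 or 3. That of SF3B5 was lost without any 1 MVs array, or without hESEVs replicate 1 or 3. Leaving out certain single arrays also removed the calls of LSM6, LSM10, PRPF38A, SNRPA1 and SNRPN in MVs against hESEVs. It did so for SF3B6 and SNRPA1 in EXOs against hESEVs.

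The mean hESEVs signal lay between the MVs and EXOs means for 38 of the 45 genes (84.4%), against 52.7% of all genes. The 7 exceptions were PRPF18, LSM1, LSM14A, PRPF38B, PRPF39, PRPF40B and SF3B3. None of the 14 genes of the Sm and U6 rings was among them. In all, 25 genes were called higher in MVs against both EXOs and hESEVs, and 13 of the 45 were called in all 3 comparisons. The share of all genes with these joint calls was not counted. The comparisons share arrays, so joint calls are not independent.

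**Figure D3:**
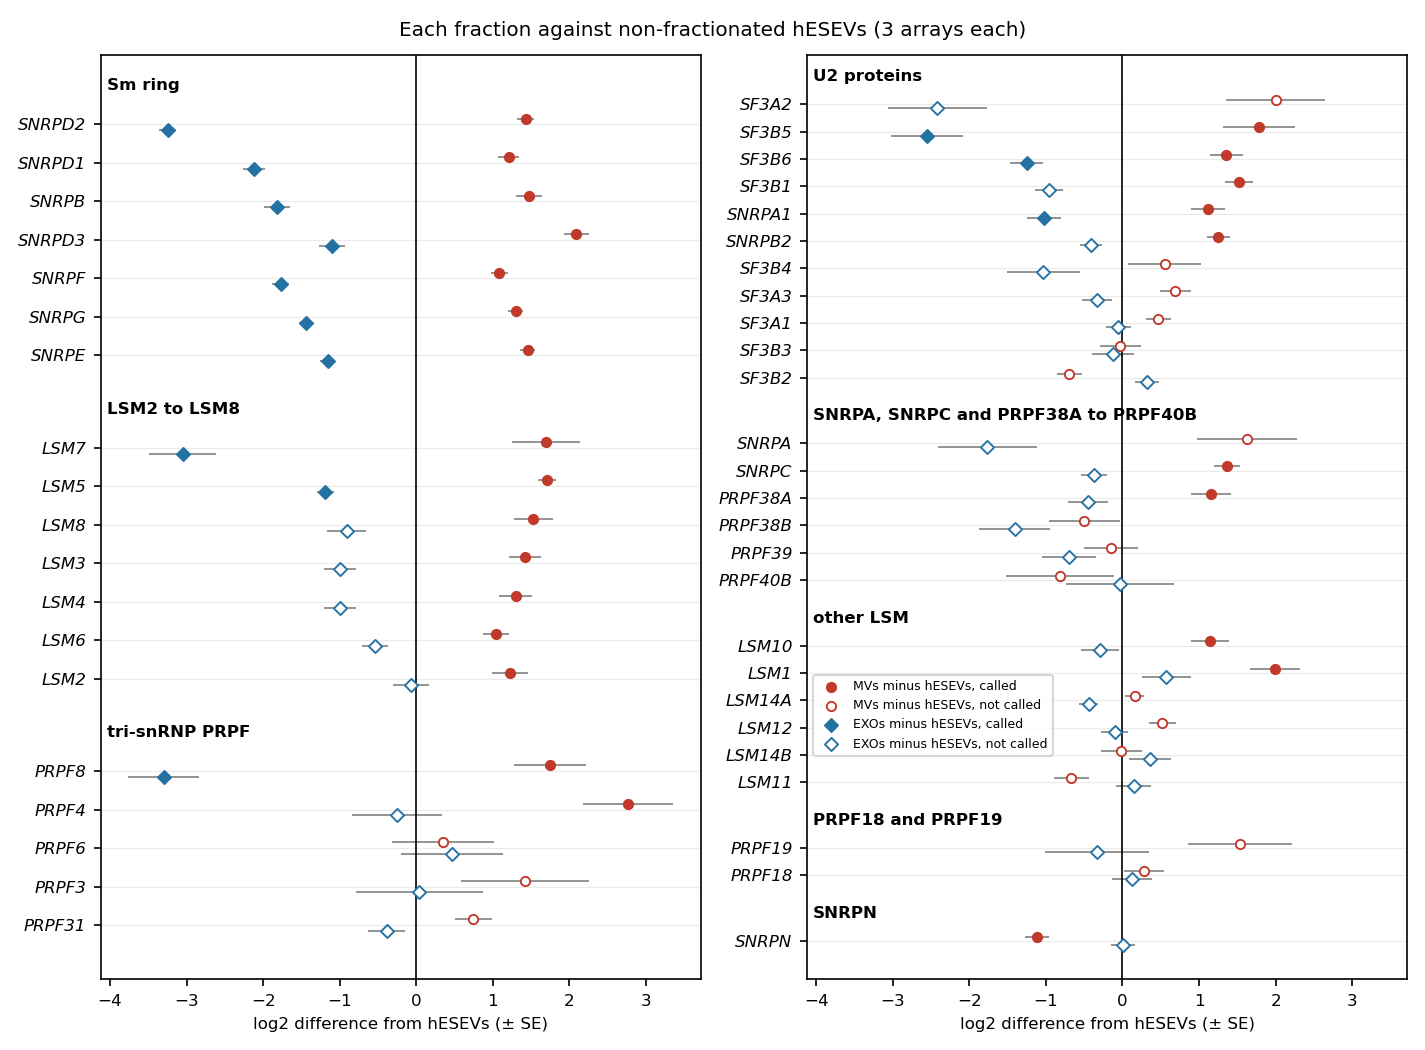
Log2 difference from hESEVs for each of the 45 genes, for MVs (red circles) and EXOs (blue diamonds), with standard errors (bars); filled points are called. The 7 Sm ring genes have filled points on both sides of 0. PRPF6 and LSM14A are drawn for the probe set that was brightest over the 9 arrays, which differs from the one used in MVs against EXOs.

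The 45 genes had 91 probe sets of their own, and their separate values show how far a result depends on the probe set. Of the 91, 41 were called higher in MVs (8.44% of all probe sets with a single gene) and 2 higher in EXOs (1.77%). Among the 46 probe sets that were not used for the genes, 11 were called higher in MVs and 35 were not called. Among the 44 probe sets whose mean signal in MVs was above 1000, 37 were called higher in MVs, while among the 47 at or below 1000, 4 were. This split uses the MVs signal, which is part of the difference, and is a description only. The share called among all probe sets at these levels was not counted. Over all genes the difference also rose with the MVs signal (Spearman correlation 0.47, against 0.63 over the 45 genes). Of the 25 genes with several probe sets, 11 had the same sign in all of them and 14 had both signs. For SNRPB both probe sets gave nearly the same value (3.15 and 3.29), and for SNRPD1 they gave 1.18 and 3.33. SF3B3, SF3A1 and LSM14A, not called above, each had another probe set that was called higher in MVs, with log2 differences of 2.20, 3.85 and 2.06. Among the genes called higher in MVs, the lowest probe set was below 0 for SNRPB2 (-0.76), SF3B6 (-0.66), SF3B1 (-0.22) and PRPF38A (-0.07), as it was for LSM8, PRPF4, PRPF31, PRPF6 and SNRPA1 above, and none of these was called higher in EXOs.

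**Figure D4:**
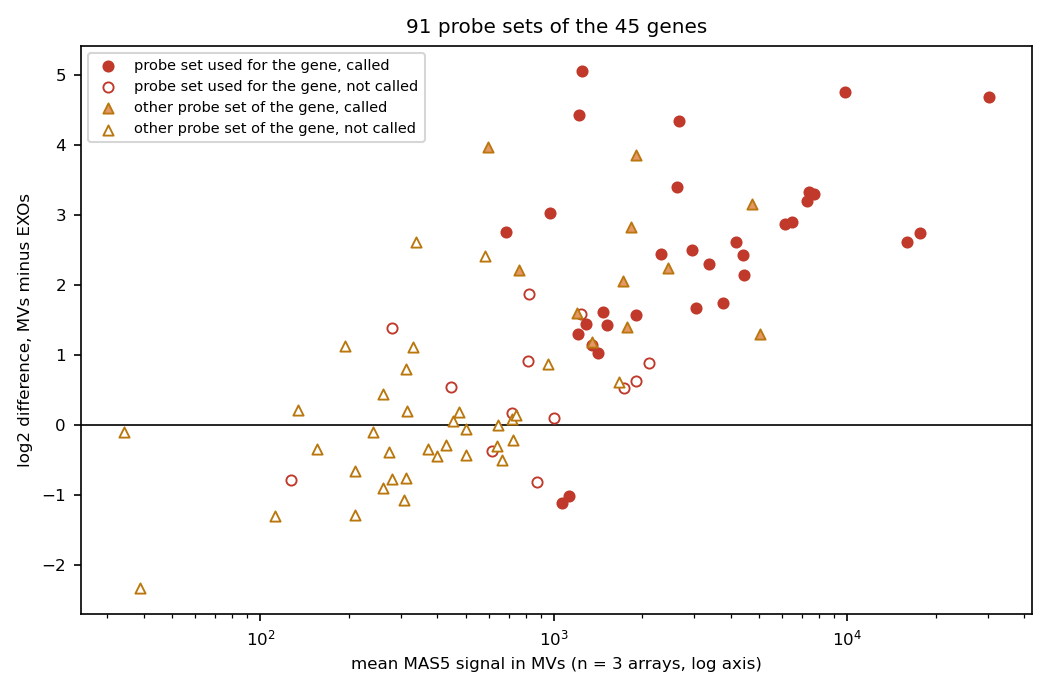
Log2 difference, MVs minus EXOs, against the mean signal in MVs (log axis) for the 91 probe sets of the 45 genes. Circles are the probe sets used for the genes and triangles the others, and filled symbols are called. Above a signal of 1000, 37 of 44 probe sets are called higher in MVs, and the share among all probe sets at that level was not counted.

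Other genes of the splicing machinery were also often called higher in MVs. Of 56 further spliceosome genes, 30 were higher in MVs than in EXOs, 0 were higher in EXOs and 26 were not called, against 11.6% and 2.77% of all genes called in these directions. Their median log2 difference was 1.10, against 1.74 for the 45 snRNP genes. Against hESEVs, 13 of the 56 were higher in MVs and 1 was higher in hESEVs (7.16% and 1.56% of all genes). The difference between the 2 sets of genes was not tested. With 2.77% of all genes called higher in EXOs than in MVs, a count of 0 is no finding about these 56 genes. The limma count of 0 was also 0 at an unadjusted p under 0.05 and by the methods' t-test. PPIL1, a spliceosomal cyclophilin, had signals of 1289.8, 1833 and 1583 in MVs, against 33.4, 27 and 24.6 in EXOs (5.58 ± 0.46, SE, adjusted p = 5.45e-05, with 2 EXOs arrays below the floor). U2AF1, which recognises the AG at the 3′ splice site, had signals of 10163, 5654 and 7613 in MVs, against 1121, 611 and 557 in EXOs. TXNL4A, a U5 protein, averaged 5174 ± 231 in MVs and 1052 ± 113 in EXOs, and CWC27 averaged 3039.8 ± 529 in MVs and 555 ± 94.8 in EXOs (SD, n = 3 each).

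Among the factors that build snRNPs, 5 of 18 genes were called higher in MVs, where 11.6% of all genes were, and 13 were not called. Their median log2 difference was 0.48, against -0.23 for all genes, and the set was not tested against the snRNP genes. STRAP, a partner of the SMN complex, averaged 6495 ± 159 in MVs and 1536 ± 85.8 in EXOs, and CLNS1A, which holds Sm proteins before ring assembly, averaged 4643 ± 405 in MVs and 1601 ± 14.8 in EXOs. COIL, the scaffold of Cajal bodies, averaged 1003 ± 196 in MVs and 447 ± 87.5 in EXOs. PHAX, the export adaptor for snRNA, went the other way at below 2-fold, with 1113 ± 131 in MVs and 2107 ± 217 in EXOs (-0.92 ± 0.15, SE, adjusted p = 0.0027). Of 15 genes of mRNA decay, in which LSM1 to LSM7 take part, 4 were called higher in MVs, also against 11.6% of all genes, and 11 were not called (median 0.40). DCP2, the decapping enzyme, averaged 2493 ± 334 in MVs and 654 ± 35.9 in EXOs, and the deadenylase CNOT7 averaged 4536 ± 703 in MVs and 1713 ± 174 in EXOs (SD, n = 3 each). PAN3, a deadenylase partner, and CNOT1, the scaffold for CNOT7, had log2 differences of 1.07 and 0.83, the second below 2-fold.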

How the data were processed

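RNA from 3 MVs, 3 EXOs and 3 hESEVs samples was hybridised to Affymetrix HG-U133 Plus 2.0 arrays. The deposited values are MAS5 intensities that the authors scaled to a target of 500 on each array. The study's methods also name RMA, but the deposited intensities are linear, with a trimmed mean of 500.0 on each array. Of 54675 probe sets, 41091 carry 1 gene in the platform annotation, 1801 carry several, 11721 none and 62 are controls. Signals below 32 were set to 32, log2 was taken, and 1 probe set per gene, that with the highest mean, was tested with limma 3.58.1 (lmFit, eBayes with trend, R 4.3.3) over 19777 genes, with Benjamini-Hochberg adjustment, 6 arrays for MVs against EXOs and all 9 for the comparisons with hESEVs. Values for each array are given for the 7 Sm ring genes and, in each other group of members, for up to 3 genes with the smallest and up to 2 with the largest p in MVs against EXOs; of each list outside the members, up to 4 genes with the smallest p are named. SF3A2, SF3B5 and SF3B2 are given in addition, chosen after their values were seen. The members, lists and motifs were chosen with earlier results of these data known. The numbers of arrays limit the precision; the study states that MVs and EXOs came from 3 cultures, and the labels do not tie the arrays to cultures. On simulated data for MVs against EXOs with 19777 genes, the test called 88 of 100 genes changed by log2 3, 55 of 100 changed by log2 1.5 and 2 of 19577 unchanged. The changed genes were drawn from those above the median signal, so these rates do not cover genes near the floor. Alternatives covered scaling, floor, filter, probe sets, test, block and single arrays left out.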

Additional observations from a re-analysis of the deposited data

How the results depend on the processing

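For MVs against EXOs, the number of members called (32) stayed between 28 and 34 under the alternatives, with the following exceptions. Without probe sets whose names end in _s_at, _x_at or _a_at (called shared here), 20 of the 35 members left were called. The probe sets left out were each annotated to a single gene, so the word refers to the name only. Over all probe sets, 43 of 91 probe sets were called. The median log2 difference (1.74) was 1.97 with median centring, 1.32 with the mean of the probe sets of a gene, 1.29 without shared probe sets and 1.13 over all probe sets. Median centring itself moved all genes by 0.23. For MVs against hESEVs (26 called, median 1.22), quantile normalization gave 10 and 0.59, the mean of probe sets 15 and 1.02, no shared probe sets 17 and 1.10, median centring a median of 1.44 and all probe sets one of 0.92. For EXOs against hESEVs (13 called, median -0.53), the mean of probe sets gave 8, no shared probe sets 5 with a median of -0.12, the adjusted t-test 7, the filter on low signals a median of -0.91 and all probe sets one of -0.33. The cause of these shifts was not tested.

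Single members turned sign mostly with the probe set used. In MVs against EXOs the mean of probe sets gave -0.68 for PRPF18, -0.43 for PRPF31 and 1.48 for SF3B2; without shared probe sets PRPF31 was at -2.34, PRPF38A at -0.069 and SNRPA1 at -0.51; with probe sets of several genes SNRPN was at 2.91, and in the 9-array fit PRPF6 was at -0.11. Against hESEVs, MVs gave -0.018 for LSM8 with the mean of probe sets, -0.11 for PRPF38A and -0.029 for SNRPA1 without shared probe sets, and 1.81 for SNRPN with probe sets of several genes. EXOs gave 0.16 for LSM5, 0.48 for SNRPA1 and 0.38 for SNRPD1 without shared probe sets. For PRPF38A, the probe set left out by this setting was one with the ending _a_at.

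With 1 array left out, 28 to 32 members were called in MVs against EXOs (medians 1.61 to 1.88), 20 to 28 in MVs against hESEVs (medians 1.15 to 1.25) and 12 to 15 in EXOs against hESEVs (medians -0.67 to -0.42). PRPF6 then ranged from -0.73 (without EXOs replicate 2) to 2.65 (without EXOs replicate 3), being -0.066 without MVs replicate 1, -0.09 without MVs replicate 2 and -0.17 without MVs replicate 3, and SF3B3 from -0.056 (without MVs replicate 1) to 0.20 (without MVs replicate 2). Arrays with the same replicate number did not deviate together (r between -0.0143 and 0.00497) and were not treated as pairs, though whether they share a culture is not given by the labels. With the replicate number as a block, 33, 25 and 13 members were called in the order of comparisons above. The level of tissue-restricted genes, which most EXOs signals of the members did not exceed, limits what can be said of their size in EXOs.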
